A study of Mus musculus with 9 samples.

Results

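The 59 genes described here belong to the machinery that copies DNA and to the machinery that divides the nucleus. They were taken by symbol from 22376 gene symbols listed in the files, as 27 genes of DNA replication, 23 genes of mitosis and 9 genes for cyclins, a kinase and transcription factors that drive cells from G1 through S phase towards mitosis. All 59 were listed, and all 59 were among the 13741 genes that passed the filter on low values. The RNA came from bone-marrow-derived macrophages of wild-type C57Bl/6 mice, the adherent phagocytes that grow from marrow under macrophage colony-stimulating factor (M-CSF). Marrow of tibias and femurs was grown in bags for 1 week with 10 ng/ml M-CSF, washed free of it, and plated at 50000 cells for 48 h with 100 µg/ml of an antibody to PD-L1 (libraries 1 to 3), with 100 µg/ml of an isotype-matched antibody of irrelevant specificity (libraries 4 to 6), or with neither (libraries 7 to 9). PD-L1 is the ligand of the inhibitory receptor PD-1. M-CSF is the mitogen of this lineage, and in all 9 libraries, controls included, the cells had been washed to remove it before the 48 h of culture. Nothing in the labels tells if wells of 1 group go back to different animals or cultures; the p-values therefore cover the spread among these samples alone, and it may be technical.

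Before S phase, the origin recognition complex, Cdc6 and Cdt1 load the MCM helicase onto origins of replication, and Cdc45 and the GINS complex then switch it on. DNA polymerases, the sliding clamp and a supply of deoxynucleotides carry the copying through. E2F transcription factors release the genes of this phase as the RB proteins are phosphorylated, while MuvB complexes with B-Myb and FOXM1 raise the later wave of genes for cyclin B, mitotic kinases, kinetochores and the spindle. In resting cells the DREAM complex holds both waves down. Macrophages grown with M-CSF divide, and they leave the cycle when the factor is withdrawn.

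Levels are given as CPM, the exonic read equivalents of a gene per 1000000 in the library after scaling by TMM, and differences as log2(CPM + 1) with a standard error from limma, which understates the change of genes at low level. Exonic read equivalents per library ranged from 23554320 to 40116467, and the TMM factors from 0.919 to 0.932 in the PD-L1 antibody libraries and from 1.009 to 1.063 in the other 6. PD-L1 antibody 2 was read in lane 4 of the flow cell and the other libraries in lane 1. Untreated 7 stood apart from untreated 8 and 9: the isotype antibody and untreated groups differed in 1 gene with it and in 2295 genes without it. The macrophage label held against its markers in all 9 libraries, with Csf1r, the M-CSF receptor, at 2220 to 3765 CPM and Cd68 at 725 to 1213 CPM. B cell and T and NK cell markers summed to 4.67 to 10.4 and to 0.98 to 4.48 CPM. Other lineages were not as low. Markers of granulocyte precursors and neutrophils summed to 428 to 1356 CPM. Dendritic cell markers summed to 267 to 527 CPM, of which Ccr7 alone read 249 to 502. In these bulk samples, fewer cells of a type and less RNA per cell cannot be told apart.

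These genes read lower with the PD-L1 antibody than with the isotype antibody, in more of the mitosis genes than of the replication genes and by more. Of the 59 genes, 33 fell and 0 rose, where 18.2% of all tested genes fell, 18.2% rose and 36.4% changed in either direction. The median difference was -0.50, against -0.01 over all tested genes, and 8 genes fell by over 1 on the log2 scale: Kif23, Ube2c, Cdc20, Cenpa, Ccnb2, Rrm2, Birc5 and Foxm1. In 42 of the 59 genes all 3 PD-L1 antibody libraries lay below all 3 isotype antibody libraries, where 26.1% of tested genes did so, and the reverse was seen in 0 of the 59. Among the mitosis genes 18 of 23 fell, with a median of -0.70, and among the replication genes 11 of 27 fell, with a median of -0.30. Of the 9 regulators 4 fell, with a median of -0.35. The difference between the classes was not tested, since the genes were chosen with results of these libraries known. Without PD-L1 antibody 3 the replication genes called lower came to 7, and scaling by total counts in place of TMM gave 18 replication and 20 mitosis genes, where it also put the median of all genes at -0.16 and turned the split of all genes from 2495 higher and 2501 lower to 1565 higher and 4143 lower.

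Against untreated wells, which share the PD-L1 antibody libraries with the comparison above and so are no independent repeat of it, 27 of the 59 genes fell and 0 rose. Of all tested genes 20.5% fell, 22% rose and 42.4% changed in either direction. Again 18 of the 23 mitosis genes fell (78.3%), with a median of -0.63. Of the 27 replication genes 6 fell (22.2%), with a median of -0.30, and of the 9 regulators 3 (33.3%), with a median of -0.19. The share of replication genes was near the 20.5% of all tested genes, while their median lay below the -0.01 of all tested genes. The PD-L1 antibody libraries lay below all untreated libraries in 33 genes and above them in 2, Orc1 and Ccne1, where 24.9% and 26.3% of tested genes did so. The replication count depended on the scaling: it was 18 with total counts and 16 with upper quartiles, where the mitosis count was 19 and 18, and the median of all genes under total counts was -0.13, with 1940 higher and 4088 lower in place of 3017 and 2814.

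**Figure D1:**
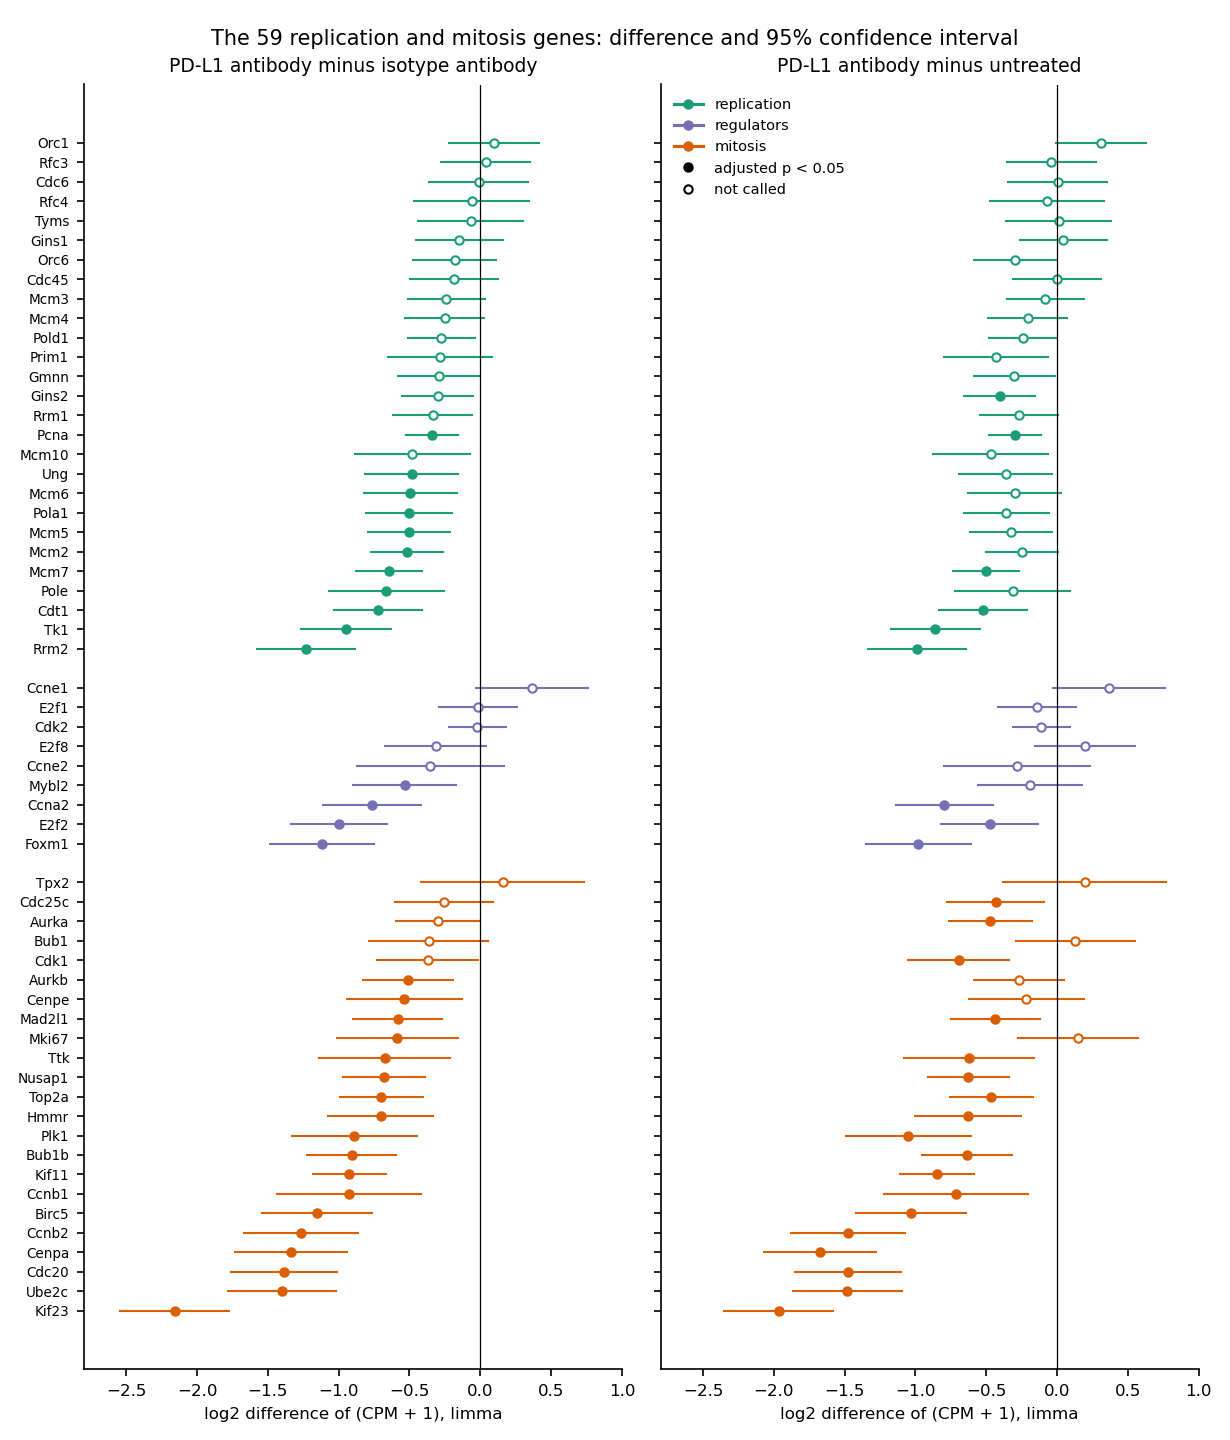
Log2 difference of (CPM + 1) with its 95% confidence interval for each of the 59 genes (vertical axis, grouped as replication, regulators and mitosis), PD-L1 antibody minus isotype antibody on the left and minus untreated on the right. Filled points passed an adjusted p of 0.05 in limma; they all lie below 0, from Kif23 at -2.16 on the left, and the mitosis block reaches further down than the replication block.

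Promoters of 5 genes are printed here, picked by their limma adjusted p against the isotype antibody, and they span the range of the response. Kif23, Cdc20 and Ube2c are the 3 genes with the largest falls in that comparison. Rrm2 is the replication gene with the largest fall, and Cdk2 has one of the 3 highest p-values. Each run is the 250 bases before the gene's start in RefSeq (build GRCm38.p6), 5′ to 3′ on the gene's strand. Capitals mark 3 motifs on either strand: the CHR, the element through which DREAM and MuvB complexes act (TTTGAA or TTCGAA, the latter its own reverse complement), the CCAAT box of NF-Y (CCAAT), and the E2F site (TTTCCCGC, TTTCGCGC, TTTGCCGC or TTTGGCGC).
Kif23: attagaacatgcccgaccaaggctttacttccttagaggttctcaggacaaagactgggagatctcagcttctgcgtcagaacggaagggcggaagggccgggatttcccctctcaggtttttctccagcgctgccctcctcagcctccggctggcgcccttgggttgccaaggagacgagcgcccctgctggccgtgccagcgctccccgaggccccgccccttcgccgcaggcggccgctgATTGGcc
Cdc20: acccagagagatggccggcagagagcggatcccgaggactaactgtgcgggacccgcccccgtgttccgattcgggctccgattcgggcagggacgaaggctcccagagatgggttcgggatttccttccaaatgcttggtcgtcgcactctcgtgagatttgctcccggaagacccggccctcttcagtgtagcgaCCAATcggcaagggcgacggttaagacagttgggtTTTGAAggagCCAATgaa
Ube2c: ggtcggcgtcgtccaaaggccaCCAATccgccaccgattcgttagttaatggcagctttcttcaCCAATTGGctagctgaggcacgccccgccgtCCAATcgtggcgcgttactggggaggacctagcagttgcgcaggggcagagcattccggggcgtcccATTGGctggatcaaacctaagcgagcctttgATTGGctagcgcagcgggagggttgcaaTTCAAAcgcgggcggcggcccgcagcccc
Rrm2: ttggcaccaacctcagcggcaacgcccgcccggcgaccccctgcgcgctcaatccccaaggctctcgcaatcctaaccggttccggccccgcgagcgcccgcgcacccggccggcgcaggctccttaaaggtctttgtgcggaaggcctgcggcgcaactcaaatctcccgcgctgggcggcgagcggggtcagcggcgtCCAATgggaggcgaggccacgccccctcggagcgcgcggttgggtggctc
Cdk2: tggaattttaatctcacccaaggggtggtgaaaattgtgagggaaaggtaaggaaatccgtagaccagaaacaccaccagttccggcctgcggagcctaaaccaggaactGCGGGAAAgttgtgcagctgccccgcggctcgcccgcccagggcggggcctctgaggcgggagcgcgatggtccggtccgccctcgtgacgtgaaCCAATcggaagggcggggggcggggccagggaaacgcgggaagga
They lie at chr9:61946800-61947049 (minus strand, Kif23), chr4:118437344-118437593 (minus strand, Cdc20), chr2:164769679-164769928 (plus strand, Ube2c), chr12:24708004-24708253 (plus strand, Rrm2) and chr10:128705052-128705301 (minus strand, Cdk2). Cdc20 and Ube2c carried 1 CHR each, 18 to 13 and 29 to 24 bases before the start, and Ube2c carried 6 CCAAT boxes, of which 2 on opposite strands overlap in its CCAATTGG. The other 3 windows held no CHR, and Cdk2 alone of the 5 held an E2F site. Tk1, a replication gene picked by the same rule, is not printed. It differed by -0.95 from the isotype antibody, and its window held 0 motifs.

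A window was found for 48 of the 59 genes, and in 41 it lay directly before the transcript start given in the files. In the others it was 21 to 721 bases off, and they are counted too. For the 59 genes the window nearest to the transcript read was taken, but for the set of tested genes the first listed per symbol, so the shares compare unlike choices. A CHR was present in 8 of 20 mitosis windows (40%) and 3 of 22 replication windows (13.6%), against 12.6% of the 10515 windows of tested genes and 17.1% of all 32851 windows. A CCAAT box was present in 17 of 20 mitosis windows (85%) and 15 of 22 replication windows (68.2%), against 36.8% and 33.8%. An E2F site showed the other order, with 1 of 20 mitosis windows (5%) and 6 of 22 replication windows (27.3%), against 3.36% and 1.86%. Of the 12 genes with a CHR, 8 fell against the isotype antibody, with a median of -0.64. Of the 36 without, 21 fell, with a median of -0.50. All 12 genes with a CHR also held a CCAAT box. Of the 35 genes with a CCAAT box, 22 fell, with a median of -0.52. Of the 13 without, 7 fell, with a median of -0.48. Of the 8 genes with an E2F site (Cdc6, Cdk1, Cdk2, Mcm5, Mcm6, Orc1, Pola1 and Rfc3), 3 fell, with a median of -0.20; of the 40 without, 26 fell, with a median of -0.58. Of all tested genes 18.2% fell in that comparison. Since 8 of the 12 genes with a CHR are mitosis genes and 6 of the 8 with an E2F site are replication genes, motif and class cannot be told apart here. These are letter matches in 1 window per gene, and nothing about binding was measured.

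Licensing and helicase genes fell in part. Of 15, 5 (33.3%) fell against the isotype antibody (Cdt1, Mcm2, Mcm5, Mcm6 and Mcm7), where 18.2% of all tested genes fell. Against untreated wells 3 (20%) fell (Cdt1, Mcm7 and Gins2), a share near the 20.5% of all tested genes. Mcm7, a subunit of the MCM helicase (chr5:138164583-138171266, minus strand), read 12.6, 13.9 and 12 CPM with the PD-L1 antibody, 18.7, 20.2 and 23.1 with the isotype antibody and 17.9, 18.3 and 19.4 untreated. The PD-L1 antibody libraries lay below all 6 others. The difference was -0.65 (SE 0.10, limma adjusted p = 0.00065) against the isotype antibody and -0.50 (SE 0.10, adjusted p = 0.00286) against untreated wells. Cdt1, the loader of the helicase, was the most abundant of the 15 per kb of exon, and read 28.1, 31.2 and 33.2 CPM with the PD-L1 antibody, 45.8, 53.5 and 55.3 with the isotype antibody and 57.2, 41 and 38.1 untreated. It fell by 0.72 (SE 0.14, adjusted p = 0.00223) and, in limma, by 0.52 (adjusted p = 0.0118) against untreated wells, which no longer passed without PD-L1 antibody 1. Its inhibitor geminin (Gmnn) read 10.7, 12.8 and 8.86, then 13.5, 13 and 13.4, and in the untreated libraries 12.2, 14.8 and 13.4 CPM, and neither difference passed (-0.29, adjusted p = 0.104 in limma; -0.30, adjusted p = 0.0844).

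The helicase subunits did not all pass. Mcm2 read 14.6, 14 and 13.4 CPM with the PD-L1 antibody, 19.2, 19.2 and 23.4 with the isotype antibody and 18.8, 17.1 and 14.9 untreated. It stood below both control groups in every library, and fell against the isotype antibody (-0.52, SE 0.11, limma adjusted p = 0.00454) but not past the threshold against untreated wells (-0.25, adjusted p = 0.105). Mcm5 and Mcm6 differed by -0.50 and -0.49 from the isotype antibody and by -0.32 and -0.30 from untreated wells, the latter pair above the threshold; the call of Mcm6 was lost without PD-L1 antibody 1, PD-L1 antibody 3, isotype antibody 6 or the filter on low values. Mcm3 and Mcm4 differed by -0.24 and -0.25 from the isotype antibody and did not pass. Cdc6, which loads the helicase together with Cdt1, had one of the 3 highest p-values of the 59: it read 3.25, 2.62 and 3.5 CPM with the PD-L1 antibody, 2.36, 3.68 and 3.51 with the isotype antibody and 3.08, 3.49 and 2.75 untreated. Its difference from the isotype antibody was -0.01, with a 95% confidence interval from -0.36 to 0.34. Mcm10, which helps to start the helicase, differed by -0.48 and -0.47 and did not pass. Orc1, Orc6, Cdc45 and Gins1 lay between -0.19 and 0.10 against the isotype antibody and did not pass either. Gins2 fell against untreated wells (-0.40, limma adjusted p = 0.0146), except without PD-L1 antibody 1, untreated 8 or untreated 9. In the annotation used for overlap its exons span 3900 bases, of which 70.7% overlap Gse1 on the other strand. The transcript counted here has 1038 exon bases, and the overlap of those bases alone was not computed. The strand used in counting is not given in the sources used here. How far reads of Gins2 can be told apart from those of Gse1 is therefore not known.

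The clamp stood far above the rest of the replication genes in level. Pcna, the ring that holds the polymerases on DNA (chr2:132249286-132253180, minus strand), averaged 122.9 CPM per kb of exon over the 9 libraries and made up 47.6 to 51.6% of the summed CPM per kb of the 27 replication genes. It read 133, 144 and 121 CPM with the PD-L1 antibody, 163, 165 and 177 with the isotype antibody and 158, 175 and 156 untreated. The groups did not overlap, and the difference was small: -0.34 (SE 0.08, limma adjusted p = 0.00848) and, against untreated wells, -0.30 (adjusted p = 0.0152), a call lost without PD-L1 antibody 3 or untreated 8. Pola1, the catalytic subunit of the primase-coupled polymerase, read 5.14, 6.08 and 4.41 CPM with the PD-L1 antibody, 7.93, 6.77 and 8.67 with the isotype antibody and 6.76, 6.48 and 7.54 untreated. It fell against the isotype antibody (-0.50, limma adjusted p = 0.0141) and did not pass against untreated wells (-0.36, adjusted p = 0.0551). Pole, the catalytic subunit of the leading-strand polymerase, read 2.96, 3.11 and 2.52, then 5.33, 3.69 and 6.69, and untreated 3.82, 4.56 and 3.1 CPM. It too fell against the isotype antibody (-0.66, limma adjusted p = 0.0157) and not past the threshold against untreated wells (-0.31, adjusted p = 0.196). Both isotype calls were lost without PD-L1 antibody 3 or isotype antibody 6, and that of Pola1 also with edgeR on the deposited read counts. Of the other 4 genes of this group, Pold1 and Prim1 differed by -0.28 and -0.29 from the isotype antibody and the clamp loaders Rfc3 and Rfc4 by 0.04 and -0.06, none past the threshold; 13.4% of the annotated exon bases of Rfc4 overlap Eif4a2 on the other strand.

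The deepest falls among the replication genes were in nucleotide supply. Rrm2, the S phase subunit of ribonucleotide reductase (chr12:24708254-24714146, plus strand), read 4.48, 3.76 and 3.49 CPM with the PD-L1 antibody, 9.99, 9.08 and 12.7 with the isotype antibody and 8.27, 10.5 and 7.54 untreated. Every PD-L1 antibody library was below every other. It fell by 1.23 (SE 0.16, limma adjusted p = 0.000121) against the isotype antibody and by 0.99 (SE 0.16, adjusted p = 0.000495) against untreated wells. Tk1, the thymidine kinase of the salvage pathway, read 3.68, 3.67 and 3.49 CPM with the PD-L1 antibody, 8.07, 7.33 and 8.35 with the isotype antibody and 8.1, 8.62 and 5.71 untreated. The 3 PD-L1 antibody libraries lay close together and below the other 6. The difference was -0.95 (SE 0.14, limma adjusted p = 0.000403) and -0.86 (SE 0.14, adjusted p = 0.000681), the latter a call lost with edgeR on the deposited read counts. Rrm1, the partner subunit of Rrm2 and the most abundant of the 5 per kb, read 22.2, 21.3 and 18 CPM, then 25.1, 24.7 and 28.6, and untreated 22, 29.5 and 23.6, and did not pass (-0.34, limma adjusted p = 0.0554; -0.27, adjusted p = 0.104). Ung, the glycosylase that removes uracil from DNA, was low, at 1.31, 1.37 and 1.06 CPM with the PD-L1 antibody against 1.94, 2.29 and 2.19 with the isotype antibody and 1.87, 2.46 and 1.42 untreated. Its difference from the isotype antibody passed (-0.48, limma adjusted p = 0.0262), and this call was lost without PD-L1 antibody 1, PD-L1 antibody 3, isotype antibody 5 or isotype antibody 6, with edgeR on the deposited read counts and with limma-voom. Tyms, thymidylate synthase, was read from a noncoding transcript model of the gene and differed by -0.07.

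**Figure D2:**
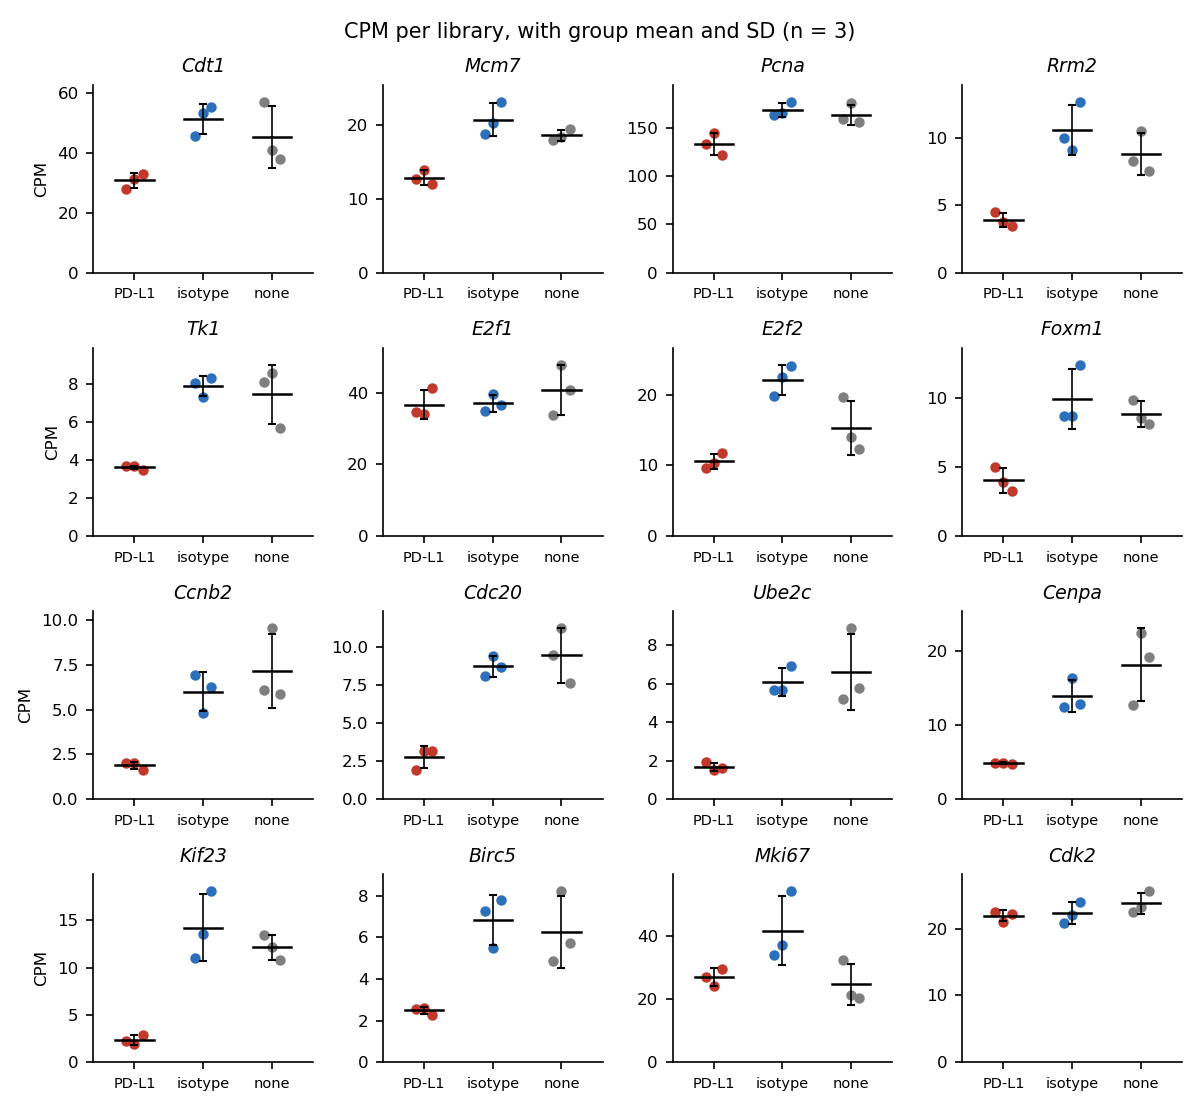
CPM (vertical axis, from 0) of 16 of the genes in each library, by group (PD-L1 antibody, isotype antibody, none), with the group mean and SD (n = 3). The PD-L1 antibody points of Kif23 (1.96 to 2.94 CPM), Cenpa and Rrm2 lie below all others, those of E2f1 and Cdk2 lie among the controls, and Mki67 is high in the isotype antibody libraries and not in untreated 8 and 9.

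The regulators split. Foxm1, the factor that drives genes of G2 and mitosis (chr6:128362994-128375886, plus strand), read 4.97, 3.87 and 3.23 CPM with the PD-L1 antibody, 8.68, 8.7 and 12.4 with the isotype antibody and 9.89, 8.54 and 8.08 untreated. It lay below both control groups in every library, and fell by 1.12 (SE 0.17, limma adjusted p = 0.000392) and by 0.98 (SE 0.17, adjusted p = 0.000822). E2f2, an activator of S phase genes, read 9.64, 10.4 and 11.7 CPM with the PD-L1 antibody, 19.9, 22.5 and 24 with the isotype antibody and 19.7, 13.9 and 12.4 untreated. Untreated 7 stood with the isotype antibody libraries and untreated 8 and 9 nearer to the PD-L1 antibody libraries. The difference was -0.998 (SE 0.16, limma adjusted p = 0.000489) against the isotype antibody and -0.47 (adjusted p = 0.0292) against untreated wells, a call lost without untreated 7, PD-L1 antibody 1, PD-L1 antibody 2 or the filter on low values, with edgeR on the deposited read counts, and in a fit of those 2 groups alone. Ccna2, cyclin A of S phase and G2, read 7.86, 9.1 and 9.28 CPM, then 16, 12.7 and 18.3, and untreated 13.9, 19.6 and 14.7. It fell by 0.76 (SE 0.16, limma adjusted p = 0.0029) and by 0.80 (adjusted p = 0.00195); 17.2% of its annotated exon bases overlap Exosc9 on the other strand. Mybl2, the B-Myb partner of MuvB, fell against the isotype antibody (-0.53), except without PD-L1 antibody 1, PD-L1 antibody 3, isotype antibody 5, isotype antibody 6 or the filter on low values, or with edgeR on the deposited read counts, and not past the threshold against untreated wells (-0.19).

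E2f1 and Cdk2, the activator and the kinase of S phase entry, had 2 of the 3 highest p-values. E2f1 was the most abundant regulator per kb, at 34.6, 34.2 and 41.4 CPM with the PD-L1 antibody, 34.9, 39.7 and 36.8 with the isotype antibody and 33.8, 47.8 and 41 untreated. The groups overlapped, and the difference from the isotype antibody was -0.02 with a 95% confidence interval from -0.29 to 0.26. Cdk2 read 22.5, 21 and 22.2, then 20.8, 22 and 24, and untreated 22.5, 23.2 and 25.6 CPM. Its difference from the isotype antibody was -0.02, with an interval from -0.22 to 0.18, and from untreated wells -0.11, which passed only when libraries were scaled by total counts. Ccne1, a cyclin that activates Cdk2, was higher by 0.37 against both control groups and did not pass (limma adjusted p = 0.137 and 0.122); it passed against the isotype antibody without isotype antibody 6. Ccne2 and E2f8, a repressor of E2F genes, differed by -0.35 and -0.32 from the isotype antibody and did not pass, and 20.3% and 13.6% of their annotated exon bases overlap another gene on the other strand. E2f8 was called higher than in untreated wells when untreated 7 was left out.

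Genes of mitotic entry and exit had the lowest median of the 7 role groups, -1.10. Against the isotype antibody 4 of 6 (66.7%) fell, where 18.2% of all tested genes did so. Against untreated wells 6 of 6 (100%) fell, where 20.5% of all tested genes did so. Cdc20, the activator of the anaphase-promoting complex (chr4:118432901-118437343, minus strand), read 1.95, 3.16 and 3.19 CPM with the PD-L1 antibody, 8.08, 9.43 and 8.71 with the isotype antibody and 9.48, 11.3 and 7.67 untreated. Its highest PD-L1 antibody library was below the lowest of the other 6. It fell by 1.39 (SE 0.17, limma adjusted p = 9.18e-05) and by 1.48 (SE 0.17, adjusted p = 5.37e-05). Ube2c, the ubiquitin-conjugating enzyme of the same complex (chr2:164769929-164772902, plus strand), read 1.91, 1.51 and 1.63 CPM with the PD-L1 antibody, 5.67, 5.7 and 6.94 with the isotype antibody and 5.22, 8.9 and 5.77 untreated. The difference was -1.40 (SE 0.17, limma adjusted p = 9.97e-05) and -1.48 (SE 0.17, adjusted p = 6.2e-05). Ccnb2, a cyclin B, showed the same pattern, at 2.01, 2.01 and 1.64 CPM, then 6.93, 4.8 and 6.28, and untreated 6.1, 9.55 and 5.86, with differences of -1.27 and -1.48. Ccnb1, the other cyclin B, fell by 0.93 and 0.72, the latter lost without PD-L1 antibody 1, PD-L1 antibody 3, untreated 8, untreated 9 or the filter on low values, and in a fit of those 2 groups alone. Cdk1, the kinase both cyclins activate, read 5.29, 5.18 and 4.86 CPM, then 7.12, 6.7 and 6.91, and untreated 6.51, 11.3 and 9.46: it fell against untreated wells (-0.69, limma adjusted p = 0.0053) and did not pass against the isotype antibody (-0.37, adjusted p = 0.0948), although the groups did not overlap. Cdc25c, the phosphatase that switches Cdk1 on, was under 1 CPM in every library, and its fall against untreated wells (-0.43, adjusted p = 0.0443) was kept, of the fits that left out 1 library, only without PD-L1 antibody 2 or untreated 7, and was lost with edgeR on the deposited read counts and in a fit of those 2 groups alone.

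Among the mitotic kinases and checkpoint genes, 6 of 8 (75%) fell against the isotype antibody and 6 of 8 (75%) against untreated wells. Of all tested genes 18.2% and 20.5% fell in these comparisons. Birc5, survivin of the chromosomal passenger complex (chr11:117849237-117855743, plus strand), read 2.57, 2.63 and 2.3 CPM with the PD-L1 antibody, 7.26, 5.48 and 7.8 with the isotype antibody and 4.85, 8.21 and 5.74 untreated. The PD-L1 antibody libraries were below all others, and the difference was -1.15 (SE 0.18, limma adjusted p = 0.000446) and -1.03 (SE 0.18, adjusted p = 0.00084). Bub1b, which encodes the checkpoint protein BubR1, read 4.55, 5.1 and 5.72, then 10.9, 9.25 and 11.4, and untreated 9.42, 9.38 and 6.9 CPM. It fell by 0.91 (SE 0.14, limma adjusted p = 0.000535) and by 0.64 (adjusted p = 0.00444). Plk1, the polo-like kinase of mitotic entry, read 2.09, 2.59 and 3.02, then 6.41, 4.14 and 6.46, and untreated 5.99, 8.49 and 4.98 CPM. It fell by 0.89 (SE 0.20, limma adjusted p = 0.00514) and by 1.05 (adjusted p = 0.00164). Aurkb, the kinase of the passenger complex and the most abundant of the 8 per kb, read 5.28, 6.5 and 6.17 CPM with the PD-L1 antibody, 8.54, 9.4 and 8.85 with the isotype antibody and 6, 9.18 and 7.29 untreated. Its difference from the isotype antibody passed (-0.51, SE 0.14, limma adjusted p = 0.0173), except without PD-L1 antibody 1 or isotype antibody 5, while untreated 7 fell within the range of the PD-L1 antibody libraries and the difference from untreated wells did not pass (-0.27, adjusted p = 0.159). Aurka, the kinase of the spindle poles, fell against untreated wells (-0.47), except without PD-L1 antibody 2 or with edgeR on the deposited read counts, and did not pass against the isotype antibody (-0.30). Ttk, the checkpoint kinase Mps1, fell in both, by 0.68 and 0.62, but PD-L1 antibody 3 had only 3 exonic read equivalents of it, and neither call held without that library; the first was also lost without isotype antibody 5 or 6, and the second without untreated 8 or 9. Both were also lost without the filter on low values and with edgeR on either kind of count, and the second with limma-voom, with DESeq2 and in a fit of those 2 groups alone. Mad2l1, which carries the checkpoint signal, fell by 0.58 against the isotype antibody and by 0.44 against untreated wells, the latter lost without any 1 of the PD-L1 antibody libraries, untreated 8 or 9, or the filter on low values. Bub1 differed by -0.36 and 0.13 and did not pass.

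The largest difference of the 59 genes was in Kif23, the kinesin of the central spindle needed for cytokinesis (chr9:61917278-61946799, minus strand). It read 2.21, 1.96 and 2.94 CPM with the PD-L1 antibody, 11, 13.6 and 18 with the isotype antibody and 13.4, 12.1 and 10.8 untreated. The highest PD-L1 antibody library, at 2.94 CPM, was far below the lowest of the other 6, at 10.8 CPM. The difference was -2.16 (SE 0.18, limma adjusted p = 4.48e-06) and -1.97 (SE 0.18, adjusted p = 8.84e-06). Cenpa, the histone H3 variant of the centromere, read 4.94, 4.91 and 4.76 CPM with the PD-L1 antibody, 12.5, 16.4 and 12.9 with the isotype antibody and 12.8, 22.5 and 19.3 untreated. The 3 PD-L1 antibody libraries were almost equal. It fell by 1.34 (SE 0.18, limma adjusted p = 0.000176) and by 1.67 (SE 0.18, adjusted p = 3.23e-05). Kif11, the kinesin that separates the spindle poles, read 5.32, 5.15 and 4.9, then 9.59, 11.1 and 11.3, and untreated 10.4, 10.9 and 8.75 CPM, and fell by 0.92 (SE 0.12, limma adjusted p = 0.000124) and by 0.85 (adjusted p = 0.000206). Top2a, Nusap1 and Hmmr, which act on chromosome arms and spindle microtubules, differed by -0.70, -0.68 and -0.70 from the isotype antibody and by -0.46, -0.63 and -0.63 from untreated wells, all past the threshold; the second call of Top2a was lost without PD-L1 antibody 1 or untreated 8. Cenpe, the kinetochore kinesin, passed against the isotype antibody (-0.54) and not against untreated wells (-0.22), and its call was kept, of the fits that left out 1 library, only without isotype antibody 5 or an untreated library, and was lost without the filter on low values.

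Mki67 and Tpx2 did not follow the other genes of this group in both comparisons. Mki67, the proliferation marker that coats mitotic chromosomes, read 27, 24.1 and 29.7 CPM with the PD-L1 antibody, 33.9, 37 and 54.1 with the isotype antibody and 32.2, 21.4 and 20.3 untreated. It lay below the isotype antibody libraries and among the untreated ones. The difference was -0.59 (SE 0.19, limma adjusted p = 0.0346) and 0.15 (adjusted p = 0.566), and the call was lost without PD-L1 antibody 1, PD-L1 antibody 2, isotype antibody 5, isotype antibody 6 or the filter on low values. Tpx2, a spindle assembly factor, read 13, 20.2 and 8.08 CPM with the PD-L1 antibody, 12.9, 8.86 and 13.2 with the isotype antibody and 10.7, 13.1 and 9.87 untreated. The PD-L1 antibody libraries spanned the range of both controls, with library 2, the one read in lane 4, highest of all 9. The difference was 0.16, with a 95% confidence interval from -0.42 to 0.73, and its sign changed without PD-L1 antibody 2 and under scaling by total counts.

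**Figure D3:**
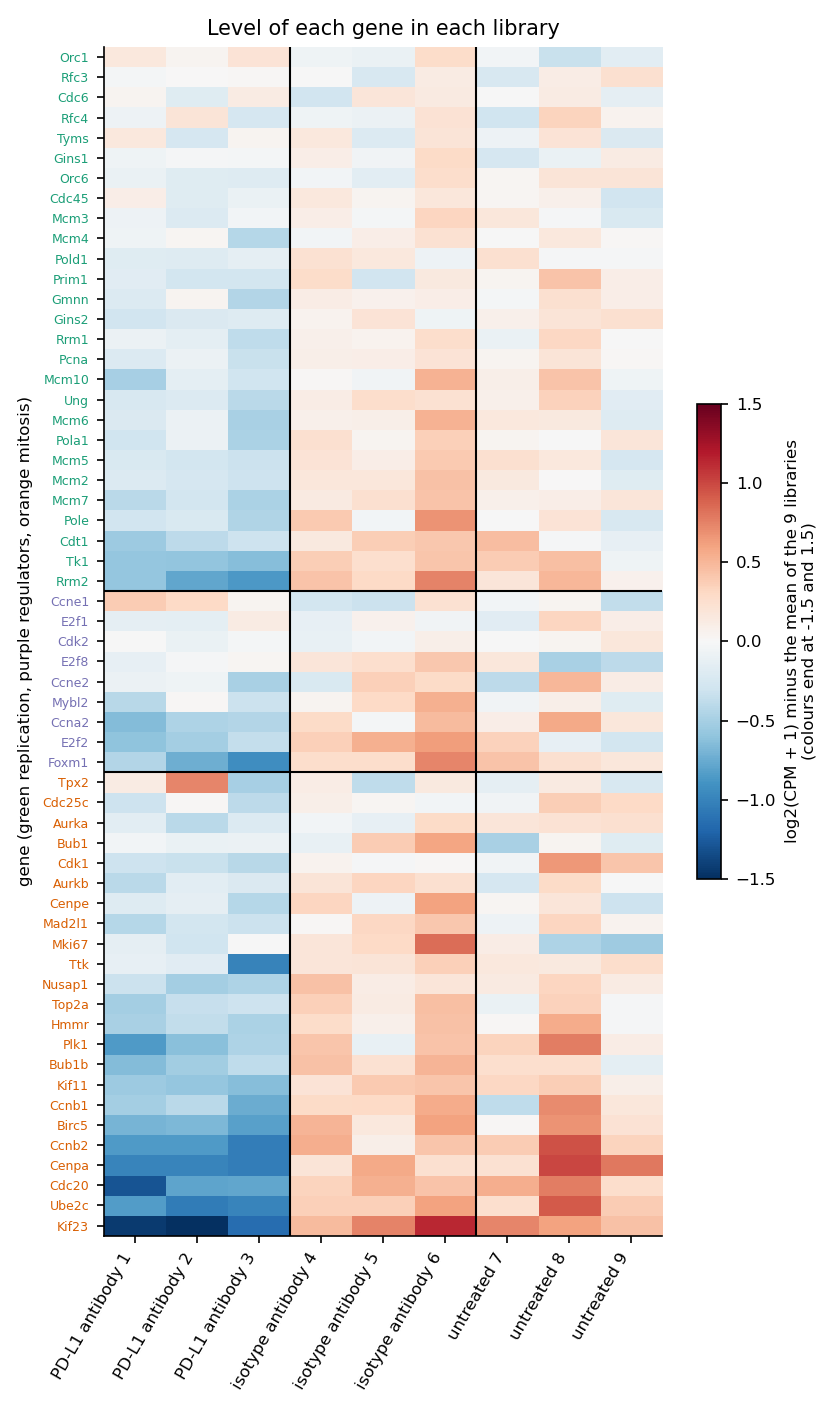
Level of each of the 59 genes (rows, ordered within class by the difference from the isotype antibody) in each of the 9 libraries (columns), as log2(CPM + 1) minus the gene's mean over the libraries. The blue of the PD-L1 antibody columns deepens towards the bottom of each block, and Mki67 and E2f8 are below their means in untreated 8 and 9.

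Summed levels showed the 2 classes side by side. The 23 mitosis genes summed to 34.5 to 37.3 CPM per kb of exon with the PD-L1 antibody, 68.2 to 78.2 with the isotype antibody and 62.6 to 86.2 untreated. The 27 replication genes summed to 195 to 222, 265 to 295 and 247 to 277 CPM per kb. As a ratio within each library, which no scaling of the library can move, mitosis genes stood at 16.5, 16.8 and 17.7% of replication genes with the PD-L1 antibody, at 25.7, 25.6 and 26.5% with the isotype antibody, and at 23.9, 31.1 and 26.8% untreated. The ratio was thus lower in every PD-L1 antibody library than in any other, and it was so without Pcna too, at 33.4 to 35.1% against 45.9 to 62.3%. A sum weights the abundant genes, and these ratios describe the lists and were not tested.

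**Figure D4:**
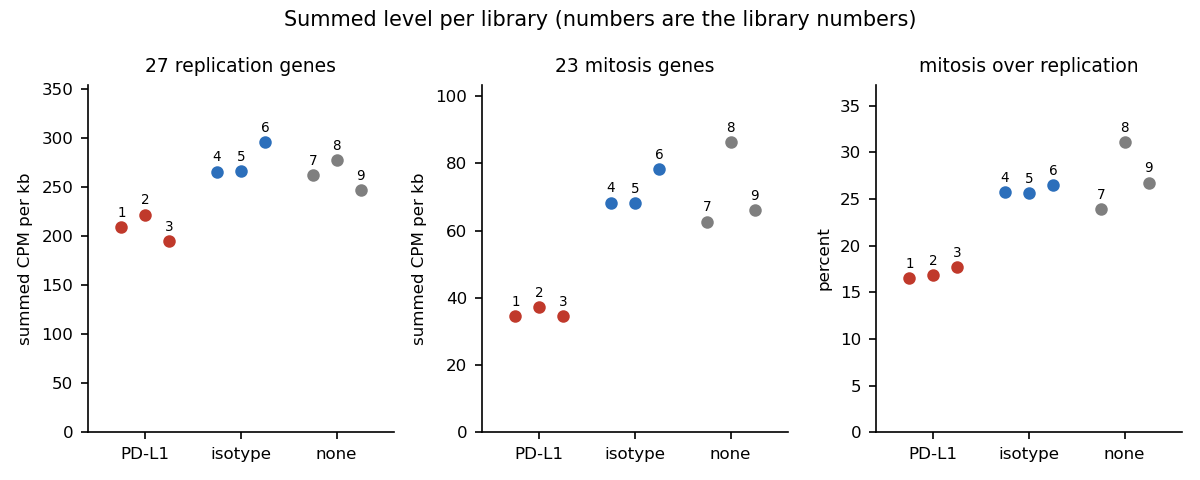
Summed CPM per kb of exon of the 27 replication genes (left) and the 23 mitosis genes (middle), and the mitosis sum as a percent of the replication sum (right), in each numbered library by group. The 3 PD-L1 antibody libraries lie lowest in each panel, at 16.5 to 17.7% on the right.

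Calls occurred at every level. They were fewest at the lowest level and most at the middle level, in both comparisons and by both measures of level. The parts are of unequal size, and by CPM per kb the counts against the isotype antibody were close. Of all tested genes 18.2% fell against the isotype antibody and 20.5% against untreated wells. Shares of all tested genes at each level were not computed. Among the 19 genes of lowest level (0.26 to 1.52 CPM per kb), 10 fell against the isotype antibody, with a median of -0.48. Among the 20 of middle level (1.74 to 3.92), 12 fell, with a median of -0.58, and among the 20 of highest level (4 to 122.9), 11 fell, with a median of -0.42. Most of the highest genes were replication genes. Within them, 7 of 14 replication genes fell, with a median of -0.34, and so did all 3 mitosis genes, Ube2c, Cenpa and Top2a, with a median of -1.34. At the lowest level 3 of 8 replication genes fell, with a median of -0.33, and 6 of 8 mitosis genes, with a median of -0.68. Against untreated wells 6, 12 and 9 genes fell from the lowest to the highest level. With level taken as CPM, the counts were 7, 15 and 11 against the isotype antibody and 5, 15 and 7 against untreated wells.

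**Figure D5:**
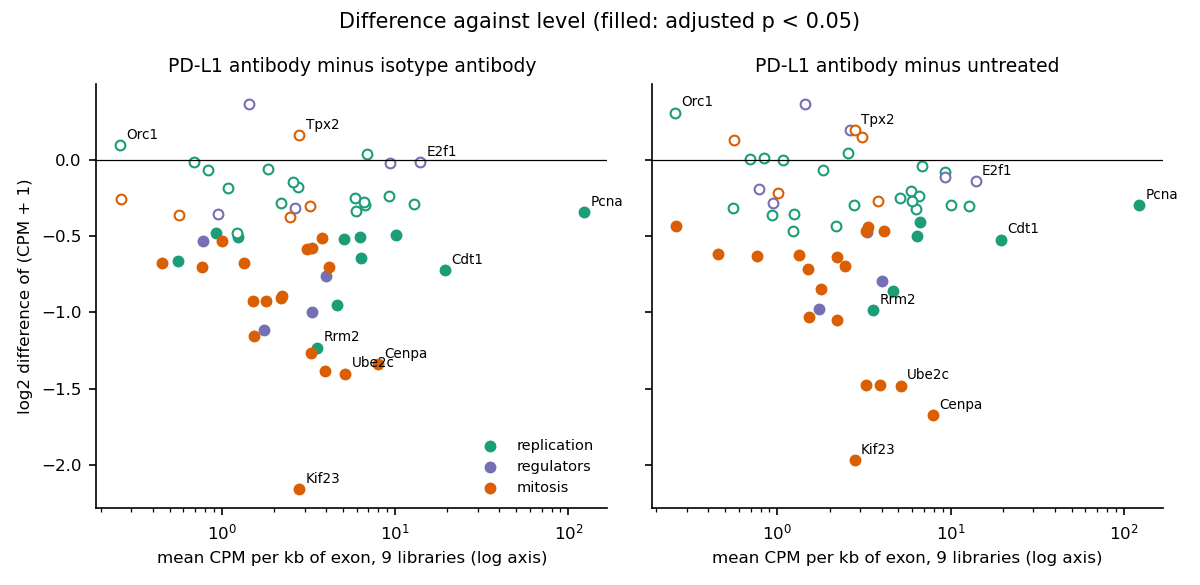
Log2 difference of (CPM + 1) (vertical axis) against the mean CPM per kb of exon over the 9 libraries (log axis) for the 59 genes, PD-L1 antibody minus isotype antibody on the left and minus untreated on the right, with filled points past an adjusted p of 0.05. Filled points occur at every level, and at equal level the mitosis genes lie mostly below the replication genes, with Pcna (122.9 CPM per kb) far to the right.

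The isotype antibody and untreated groups, which give the background of antibody protein alone, differed past the threshold of limma in 0 of the 59 genes and in 1 of 13741 genes (0.00728%). At an unadjusted p under 0.05 there were 5 of the 59 and 1748 of all genes, while DESeq2 called 13 genes, none of the 59. The median difference of the 59 was 0.08, and 4 of them, Mcm2, E2f2, E2f8 and Mki67, lay higher in all isotype antibody libraries than in all untreated ones, where 7.64% of tested genes did so; 0 of the 59 lay lower in the same way, against 5.52%. Mki67 differed by 0.74 (95% confidence interval 0.31 to 1.16, limma adjusted p = 0.345). Without untreated 7, 4 of the 59 were higher with the isotype antibody (Cdt1, E2f2, E2f8 and Mki67) and 2 were lower (Cdk1 and Cenpa). These 6 genes are 10.2% of the 59, where 16.4% of all genes tested in that fit were called in either direction.

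Other genes of the same pathways, on lists that hold none of the 59, were read from the same fit. Of 60 other mitosis genes, 32 fell (53.3%) and 5 rose (8.33%) against the isotype antibody, with a median of -0.52, where 18.2% of all tested genes fell and 18.2% rose. Against untreated wells 35 fell (58.3%) and 6 rose (10%), where 20.5% of all tested genes fell and 22% rose. Of 48 other replication genes, 10 fell (20.8%) and 5 rose (10.4%) against the isotype antibody, with a median of -0.15, and 8 fell (16.7%) and 6 rose (12.5%) against untreated wells. The shares of these that fell were near those of all tested genes in both comparisons. Stmn1, the tubulin-sequestering protein stathmin, was the lowest of the mitosis list: it read 8.78, 10 and 7.52 CPM with the PD-L1 antibody, 31.2, 31.5 and 32.9 with the isotype antibody and 26.5, 49.9 and 35.1 untreated, a difference of -1.76 (limma adjusted p = 3.14e-05). Cdc25b, a phosphatase that activates Cdk1, fell by 1.14 in both comparisons. Tuba1b, an alpha-tubulin, rose by 0.68, from 503 to 526 CPM with the isotype antibody to 805 to 844 CPM. On the replication list Brca2, of homologous recombination, fell by 0.77, and Timeless, of the fork protection complex, and Mcmbp, which binds MCM subunits, rose by 0.93 and 0.43.

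Of 28 other E2F, RB and DREAM regulators, 7 were lower (25%) and 6 higher (21.4%) against the isotype antibody, near the 18.2% and 18.2% of all tested genes, with a median of 0.03. Cdkn1c, the inhibitor p57 of cyclin-dependent kinases, read 6.53, 4.38 and 5.01 CPM with the PD-L1 antibody, 50.9, 51.4 and 57.5 with the isotype antibody and 79.7, 57.6 and 45.9 untreated. It fell by 3.12 (limma adjusted p = 4.06e-07), the largest fall of this list. Ccnd2, a D-type cyclin of G1, moved the other way, at 166, 204 and 197 CPM against 27.6, 24 and 31.3 with the isotype antibody and 38, 13.2 and 12.7 untreated, a rise of 2.73 (limma adjusted p = 6.03e-05). Tfdp2, the dimer partner of E2F proteins, fell by 0.85.

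Markers of other cells of the marrow were read against the isotype antibody from the same fit, in which 18.2% of all tested genes fell and 18.2% rose. Of 7 tested stem and progenitor markers 4 fell against the isotype antibody (Sox4, Flt3, Meis1 and Myb) while Kit, Cd34 and Gata2 did not pass, and the 8 listed summed to 53.9 to 56.9 CPM with the PD-L1 antibody, 138 to 180 with the isotype antibody and 124 to 189 untreated. Sox4 alone read 16 to 18.8 CPM with the PD-L1 antibody and 82 to 121 CPM in the other 6 libraries. Of 13 tested markers of granulocyte precursors and neutrophils 5 fell (Mpo, Camp, Ltf, Ngp and Retnlg) and 0 rose. Of these Mpo belongs to the early granules of precursors, and Camp, Ltf and Ngp to the granules of later granulocytes. The other tested genes of the same list did not pass: Elane, Prtn3, Ctsg, Ms4a3, Fcnb, S100a8, S100a9 and Mmp8. Of these S100a8, S100a9 and Mmp8 differed by -0.29, -0.57 and 0.11. The 14 genes listed summed to 428 to 576, 752 to 1356 and 577 to 763 CPM, while Ly6g was under 1 CPM in every library. Of 6 tested erythroid markers 3 fell (Hba-a1, Hba-a2 and Gata1), and Klf1 and Alas2 were at 0 in some libraries. Hba-a1 and Hba-a2 had nearly the same values in every library, so their calls are not separate results. Of 8 dendritic cell markers 3 fell and 1 rose, of 7 stromal markers 0 fell and 3 rose, and of 6 mast cell and basophil markers 0 fell and 1 rose (Hdc). Of 3 T and NK cell markers 1 fell, and of 2 B cell markers neither passed. Of 9 macrophage markers 4 rose (Adgre1, Itgam, Fcgr1 and Cd14) and 1 fell (Cd68), and they summed to 22850 to 27080, 20330 to 23890 and 18220 to 24170 CPM. The part of these markers in the lower replication and mitosis genes was not tested.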

How the data were processed

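Oligo(dT)-primed RNA of 9 libraries, 3 per group, was read in pairs of 150 bases on a HiSeq instrument per the labels' protocols. The submitters' processing notes name Partek and STAR without version, role or genome build; the transcript positions are those of GRCm38. Files list RefSeq transcripts per library, not pooled. The deposited read counts cover, as tested on the files, the whole span of each transcript, introns included, and isoforms repeat them. The other columns are, per the file headers, the average coverage (a signal per base of exon), exon length, percent values for GC and covered bases, and a mean quality score; the last 2 kinds entered no test.

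Exonic read equivalents were computed as average coverage times exon length divided by 150, with 1 transcript per symbol (highest mean). Filtering by filterByExpr left 13741 genes. Libraries were scaled by TMM, and log2(CPM + 1) of all 9 was fitted in limma with a trended variance, 1 mean per group and Benjamini-Hochberg adjustment over all tested genes, at a threshold of 0.05, two-sided. The procedure was tested on simulated data. Depth limits low genes most, and without molecular identifiers reads from PCR do not count molecules. The 59 genes and all lists were chosen with earlier results of these data known. Named with values per library were, in each of 7 role groups, the 3 genes of lowest p against the isotype antibody and the gene of highest CPM per kb, and overall the 3 of highest p; Gmnn, Cdk1, Mki67 and Tpx2 and the genes given by difference alone were added after their values were seen. Per list of other genes, the 3 of lowest p were named. Promoters are RefSeq windows. Annotated exon overlap is from GENCODE M21. Alternatives were other scalings, filters, pseudocounts, tools and thresholds, the longest transcript, and leaving out each library. Models were run with DESeq2 1.42.0, edgeR 4.0.16 and limma 3.58.1 in R 4.3.3, tables with pandas 2.3.3 and numpy 2.4.6 and figures with matplotlib 3.10.9 in Python 3.11.15.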

Additional observations from a re-analysis of the deposited data

How the results depend on the processing

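None of the calls and counts followed through the alternatives reversed. Against the isotype antibody, the 33 lower genes ranged from 26 to 38 when 1 library was left out (replication 7 to 14, mitosis 15 to 19, regulators 3 to 5, higher 0 to 1, all tested genes 3774 to 6030), and 25 of them remained without isotype antibody 6. Against untreated wells the 27 lower genes ranged from 20 to 30 (replication 4 to 9, mitosis 13 to 19, regulators 2 to 3, higher 0 to 1, all genes 4524 to 6766). Between the isotype antibody and untreated wells the ranges were 0 to 2295 genes of all, 0 to 2 lower and 0 to 4 higher of the 59, 0 to 2 lower mitosis genes and 0 lower replication genes or regulators; the 2295 came without untreated 7. Where 1 library was left out, the group with 2 was assumed to vary like the others. Scaling by total counts gave 18 lower replication genes against the isotype antibody, 41 lower genes and 18 lower replication genes against untreated wells, and 2 genes of all between the controls; upper-quartile scaling gave 16 lower replication genes against untreated wells. All 33 and 27 calls were kept under total counts. edgeR on the deposited reads lost 4 of the 33 (Pola1, Ung, Mybl2 and Ttk) and 5 of the 27 (Tk1, E2f2, Cdc25c, Aurka and Ttk), and the fit without the filter on low values lost 5 and 4. Between the controls limma-voom called 0 genes, edgeR on the deposited reads 2, edgeR on exonic read equivalents 0, DESeq2 13, a fit of the 2 groups alone 0, and a threshold of 0.01 left 0. That threshold also left 3228 of all genes and 6 replication genes against the isotype antibody, and 3821 of all, 16 of the 59, 3 replication and 11 mitosis genes against untreated wells, since it is stricter. Elsewhere the cause was not tested. No paired analysis was possible because the labels number the libraries 1 to 9 and the groups share no number. Depth limits Ttk, Cdc25c, Ung and Orc1 most.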
